A study of Mus musculus with 8 samples.

Results

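Axon guidance receptors and their ligands were examined in the cortex of APP/PS1 mice, which carry transgenes for amyloid precursor protein and presenilin 1 and form amyloid plaques. The 36 genes were chosen by name, as members of the main guidance families: 10 Eph receptors, 6 ephrins, 7 semaphorins, 5 plexins and neuropilins, 5 Slits and Robos, and netrin-1 with its receptors Dcc and Unc5d. All 36 were found among the 22869 gene symbols of the count table, and all 36 passed the filter on low counts, as did 16069 genes in all. RNA was sequenced from 4 libraries of mice given bexarotene, a retinoid X receptor agonist, and from 4 vehicle libraries, whose mice received 0.2 mg/kg of glycerol. All 8 libraries came from the same genotype, on a C57BL/6 background, so no library shows these genes without the transgenes. The promoter that drives the transgenes, the dose and duration of bexarotene, and the animals' age are not given in the sources at hand. Neither is the number of animals behind a library, so a p-value here reflects spread among libraries, which may be technical in part.

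Guidance cues tell a growing axon where to go, and in the adult brain the same molecules act on synapses, dendritic spines and vessels. Eph receptors are tyrosine kinases that bind ephrins on neighbouring cells. Secreted class 3 semaphorins act mostly through a neuropilin that binds the ligand and a plexin that carries the signal, Slits act through Robo receptors, and netrin-1 attracts through Dcc or repels through Unc5 receptors. Many of these genes are expressed in gradients or patches, so their levels differ between cortical areas, layers and neighbouring regions.

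Levels are given as CPM, counts per 1000000 reads of a library's tested rows after TMM scaling. Total counts ran from 60106192 to 76542067 in bexarotene libraries and from 42413825 to 60955403 in vehicle libraries. The cortical marker Slc17a7 was high in all libraries, at 960 to 1498 CPM under bexarotene and 1233 to 1510 CPM under vehicle. The summed level of 9 markers of striatal projection neurons was 1235, 271, 904 and 272 CPM in bexarotene replicates 1 to 4, against 646, 212, 317 and 311 CPM in vehicle replicates 1 to 4. Bexarotene replicates 1 and 3 and vehicle replicate 1 thus stood apart, with the highest striatal markers. On the first principal component of all genes, which held 36.5% of the variance, replicates 1 and 3 of both groups lay on the opposite side from replicates 2 and 4. Fewer cells of a type and less RNA per cell cannot be told apart in tissue RNA.

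Guidance genes were mostly a little below vehicle under bexarotene, but none of the 36 passed the test. The log2 fold change, bexarotene over vehicle, was below 0 in 31 of the 36, against 49.8% of all genes tested, and its median was -0.15, against 0.00092 over all genes. It ranged from -0.38 for Sema3e to 0.30 for Ntn1. Among cell type markers, 0 of 8 cortical excitatory ones had a log2 fold change above 0, with a median of -0.22. For striatal markers it was 9 of 9, with a median of 0.94, and the groups overlapped in every marker of both lists. It was 8 of 8 for microglia (median 0.48), 5 of 5 for astrocytes (0.066) and 5 of 5 for oligodendrocytes (0.24). It was also 5 of 5 for endothelium (0.15), 4 of 4 for pericytes and smooth muscle (0.29) and 5 of 5 for choroid plexus. Other lists were mixed, with 2 of 5 neuronal, 3 of 6 inhibitory, 4 of 5 thalamic, 2 of 4 hippocampal and 2 of 3 oligodendrocyte precursor markers. The part of these cell types in the guidance genes was not tested. With edgeR's quasi-likelihood test, adjusted by Benjamini-Hochberg over all rows tested, 0 of the 36 had an adjusted p below 0.05, where 0.00622% of all genes did. At an unadjusted p below 0.05 there was 1, Slit3, against 8.77% of all genes. With the replicate number as a block there were 5, against 10.3% of all genes: Sema3e (unadjusted p = 0.00906 in edgeR), Epha4 (0.00976), Sema3c (0.0211), Ephb2 (0.0464) and Unc5d (0.0488). Slit3 was then at 0.0621, and the adjusted p of each of these 6 was at least 0.378. A term for replicates 1 and 3 against replicates 2 and 4, a split found in these data, gave 6 in place of the block. Compared with the block, Slit3 and Robo2 were added and Unc5d (unadjusted p = 0.219 in edgeR) dropped out. The lowest adjusted p in that fit was 0.199, for Sema3e, and the share of all genes below 0.05 unadjusted was not counted. DESeq2 gave an adjusted p for 34 of the 36 and called 0, where it called 0.928% of genes. Slit3 and Robo2 were below 0.05 unadjusted in DESeq2, where the share of all genes below it was not counted. With limma voom 0 passed, adjusted or not. Without vehicle replicate 1 the median was -0.095 and 24 of the 36 were below 0. Without the 3 libraries highest in striatal markers together it was -0.095 and 28 were below 0.

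**Figure D1:**
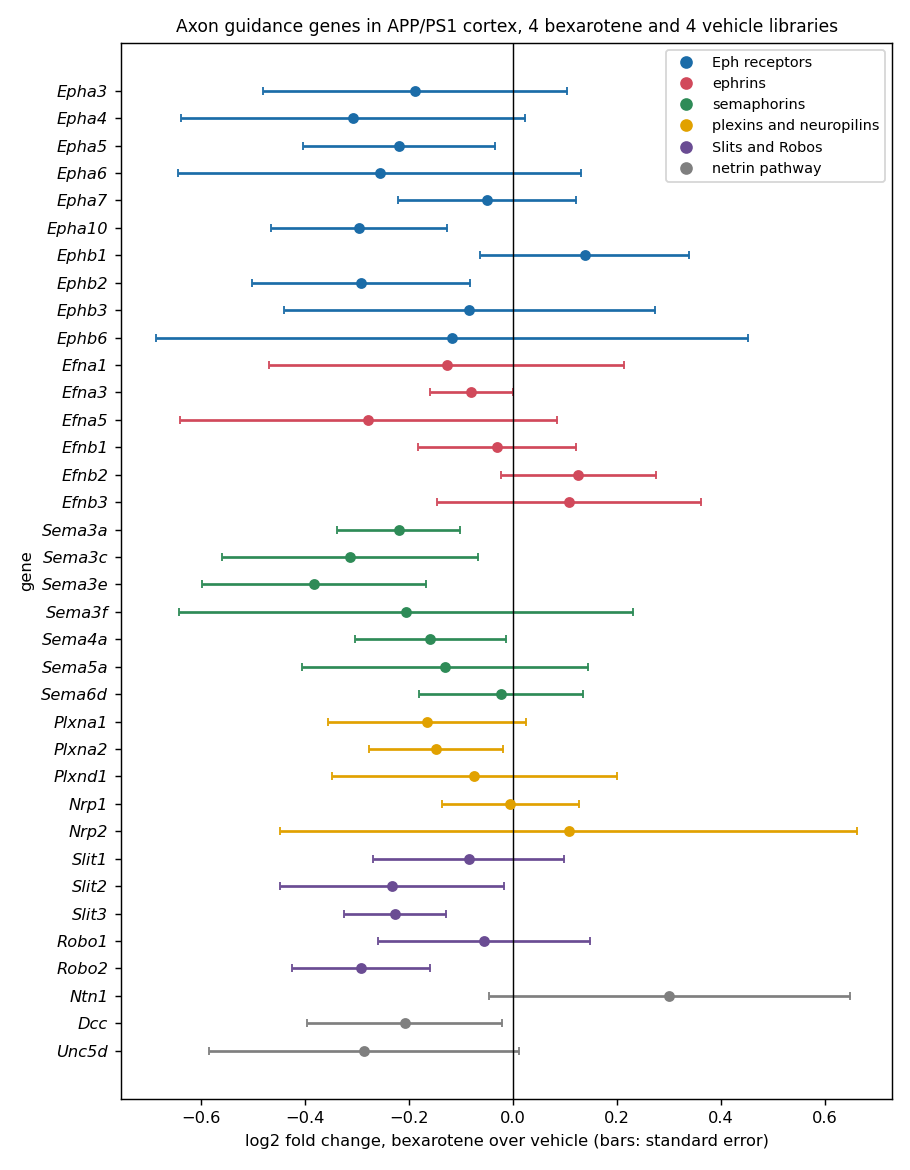
Log2 fold change of each of the 36 guidance genes (x axis, bexarotene over vehicle, bars are the standard error of the fit), with genes down the page and coloured by family. Most points lie left of 0, the 7 semaphorins and the 5 Slit and Robo genes all do, and the bars of most genes cross 0.

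Among the listed genes, the families differed in how many members lay below vehicle, which was not tested as a difference between families. All 7 listed semaphorins and all 5 listed Slit and Robo genes had a log2 fold change below 0, with medians of -0.21 and -0.23. Among Eph receptors it was 9 of 10, with a median of -0.20, and among plexins and neuropilins 4 of 5, with a median of -0.074. Among ephrins it was 4 of 6, with a median of -0.055, and among the netrin genes 2 of 3, with a median of -0.21. The order of these medians changed once each library's trend over transcript length and GC content was removed, as given below. All 3 listed ephrin-A genes were below 0, while Efnb2 and Efnb3 were above it. By role, 14 of 17 ligands and 17 of 19 receptors were below 0. Semaphorins and Robos outside the list had log2 fold changes of both signs, so these counts do not describe whole families. Sema3b was at 0.71, Sema5b at 0.23 and Robo4 at 0.13. On the other side, Sema6c was at -0.31, Sema3d at -0.17 and Robo3 at -0.38.

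Slit3 was the 1 guidance gene whose groups did not overlap, where 5.77% of all genes tested had no overlap. It encodes a secreted ligand of Robo receptors. Bexarotene replicates 1 to 4 had 25.2, 25.9, 26.9 and 25.1 CPM of Slit3, against 35.7, 27.2, 29.8 and 27.9 CPM in vehicle replicates 1 to 4. The 4 bexarotene libraries were nearly equal, and the gap to the lowest vehicle library was narrow. The means were 25.8 ± 0.834 CPM with bexarotene and 30.2 ± 3.88 CPM with vehicle (SD, n = 4 each). The log2 fold change was -0.23 ± 0.10 (SE), with an unadjusted p of 0.0447 and an adjusted p of 0.571 in the quasi-likelihood test. In an exact permutation test, two-sided, p was 0.0286, the smallest that 4 against 4 libraries can give. Groups that do not overlap always give this value, so it adds nothing to the lack of overlap. The adjusted p was at least 0.145 under every alternative tried, and the log2 fold change was -0.13 without vehicle replicate 1, the highest library.

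Robo2, a receptor for Slits, came next. It was at 58.3, 82.1, 66.1 and 74.3 CPM under bexarotene, against 92.5, 68.0, 95.6 and 87.5 CPM under vehicle. Vehicle replicate 2, at 68.0 CPM, lay inside the bexarotene range, and the other 3 vehicle libraries lay above it. Its log2 fold change was -0.29 ± 0.13, and by the same methods its adjusted p was 0.589 and its exact permutation p 0.114. Its sister receptor Robo1 had a mean of 33.8 ± 5.53 CPM with bexarotene and 35.1 ± 10.1 CPM with vehicle (SD, n = 4 each), a log2 fold change of -0.055 ± 0.20. The other Slit ligands were at -0.085 ± 0.18 for Slit1 and -0.23 ± 0.21 for Slit2.

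**Figure D2:**
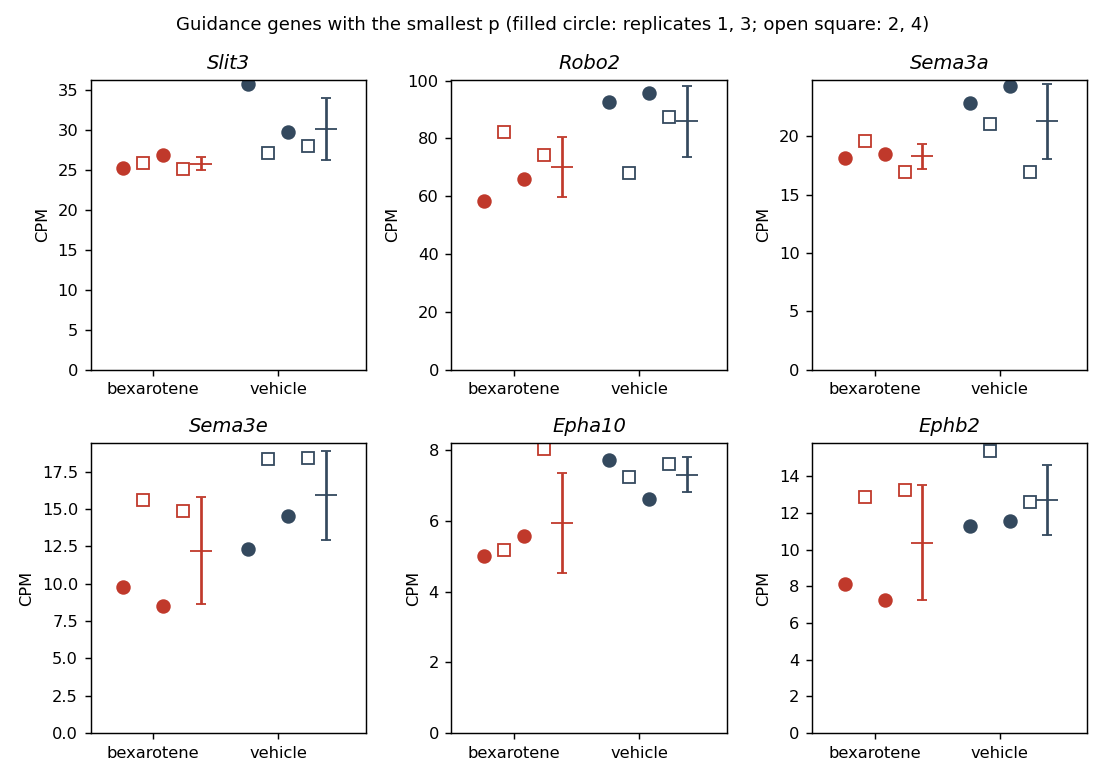
CPM of 6 guidance genes (y axis from 0) in 4 bexarotene libraries on the left and 4 vehicle libraries on the right of each panel. Filled circles are replicates 1 and 3, open squares replicates 2 and 4, and the bar is the mean with its SD. The groups do not overlap for Slit3, and they overlap for the other 5.

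Bexarotene acts through receptors that bind the half-site AGGTCA, so the 250 bases before the transcription start were searched for it on both strands. Promoters were found for 29 of the 36 genes in the RefSeq table (GRCm38.p6), and 3 of the 29 held the half-site, against 15.8% of all 27025 genes there. None of the 3 held it as a direct repeat with a spacing of 1 to 5 bases. They are shown with that of Slit3, the gene closest to the threshold, 5′ to 3′ on the gene's strand, with the half-site or its reverse complement in capitals. The Sema5a sequence is chr15:32244563-32244812 (+), that of Plxnd1 chr6:115995006-115995255 (-), that of Nrp1 chr8:128358823-128359072 (+) and that of Slit3 chr11:35121206-35121455 (+).
Sema5a: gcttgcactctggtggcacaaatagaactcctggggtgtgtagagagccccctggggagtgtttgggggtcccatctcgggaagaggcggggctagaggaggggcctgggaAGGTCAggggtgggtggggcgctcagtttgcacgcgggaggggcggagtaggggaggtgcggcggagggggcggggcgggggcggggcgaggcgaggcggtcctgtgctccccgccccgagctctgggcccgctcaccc
Plxnd1: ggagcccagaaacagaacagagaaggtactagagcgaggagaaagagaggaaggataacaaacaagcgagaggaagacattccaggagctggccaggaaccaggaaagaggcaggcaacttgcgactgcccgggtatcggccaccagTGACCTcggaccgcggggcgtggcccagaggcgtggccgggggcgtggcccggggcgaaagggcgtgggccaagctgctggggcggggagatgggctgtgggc
Nrp1: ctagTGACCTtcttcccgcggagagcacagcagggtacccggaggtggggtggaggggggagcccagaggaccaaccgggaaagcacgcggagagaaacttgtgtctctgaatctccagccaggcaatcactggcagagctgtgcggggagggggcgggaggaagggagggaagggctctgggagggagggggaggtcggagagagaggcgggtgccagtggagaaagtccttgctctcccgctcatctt
Slit3: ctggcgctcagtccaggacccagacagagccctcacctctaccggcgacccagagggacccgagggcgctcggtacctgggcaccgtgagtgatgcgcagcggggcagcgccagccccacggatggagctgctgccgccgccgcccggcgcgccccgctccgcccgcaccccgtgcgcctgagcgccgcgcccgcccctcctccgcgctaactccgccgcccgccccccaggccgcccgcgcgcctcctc

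The half-site lay 139 bases before the start in Sema5a, on the strand of the gene, and 103 bases before it in Plxnd1 and 246 in Nrp1, on the opposite strand. The log2 fold changes of these 3 genes were -0.13, -0.074 and -0.0045, none past the test. The Slit3 window held none and had 78.8% G and C. A match is a run of letters and not a binding site, and its absence from this window says nothing of retinoid receptors elsewhere at the gene.

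Among the listed semaphorins, Sema3a and Sema3e had the smallest p. Sema3a, a secreted repellent that acts through neuropilin-1, was at 18.1, 19.5, 18.5 and 16.9 CPM under bexarotene, against 22.9, 21.0, 24.3 and 16.9 CPM under vehicle. Vehicle replicate 4 was as low as the lowest bexarotene library, and the other 3 vehicle libraries were above all 4 bexarotene libraries. Its log2 fold change of -0.22 ± 0.12 had an adjusted p of 0.647 in the quasi-likelihood test. Sema3e, which binds plexin-D1 without a neuropilin, was at 9.80, 15.6, 8.53 and 14.9 CPM under bexarotene, against 12.3, 18.3, 14.5 and 18.4 CPM under vehicle. In both groups replicates 1 and 3 were low and replicates 2 and 4 high. A log2 fold change of -0.38 ± 0.22, the lowest of the 36, had an adjusted p of 0.673. The other 5 listed semaphorins ranged from -0.31 for Sema3c, a secreted ligand, to -0.022 for Sema6d, a transmembrane ligand of plexin-A1. Between them lay Sema3f (-0.21 ± 0.44), which acts through neuropilin-2, and the transmembrane Sema4a (-0.16 ± 0.15) and Sema5a (-0.13 ± 0.28).

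The receptors of semaphorins had log2 fold changes nearer 0. Plxna2, a plexin that signals for class 3 and class 6 semaphorins, was at 75.1, 111, 78.9 and 103 CPM under bexarotene, against 107, 97.3, 95.8 and 107 CPM under vehicle. Its bexarotene libraries were split, with replicates 1 and 3 below all 4 vehicle libraries and replicates 2 and 4 within or above their range. The log2 fold change was -0.15 ± 0.13. Plxna1 was at 67.3, 83.2, 67.0 and 104 CPM under bexarotene, against 86.1, 93.5, 65.5 and 115 CPM under vehicle, and the groups overlapped widely. The log2 fold change was -0.16 ± 0.19 for Plxna1, -0.074 ± 0.27 for Plxnd1, -0.0045 ± 0.13 for Nrp1 and 0.11 ± 0.56 for Nrp2. In that edgeR test the adjusted p was at least 0.80 for these 5.

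Among Eph receptors, Epha10 and Ephb2 had the smallest p. Epha10, which lacks kinase activity, was at 5.01, 5.19, 5.56 and 8.03 CPM under bexarotene, against 7.74, 7.25, 6.63 and 7.60 CPM under vehicle. Bexarotene replicate 4 was above all 4 vehicle libraries, and the other 3 bexarotene libraries were below all 4. The log2 fold change of -0.30 ± 0.17 had an adjusted p of 0.678 in the quasi-likelihood test, and it was -0.47 without bexarotene replicate 4. Ephb2, which acts at glutamate synapses, was at 8.11, 12.9, 7.23 and 13.3 CPM under bexarotene, against 11.3, 15.4, 11.6 and 12.6 CPM under vehicle. Its replicates 1 and 3 were below all vehicle libraries, while replicates 2 and 4 were within their range. Its log2 fold change was -0.29 ± 0.21. The remaining EphA genes ranged from -0.31 ± 0.33 for Epha4 to -0.050 ± 0.17 for Epha7, and the remaining EphB genes from -0.12 ± 0.57 for Ephb6 to 0.14 ± 0.20 for Ephb1.

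Ephrins had log2 fold changes of both signs. Efna3, a ligand anchored by a lipid tail, was the steadiest of the 36 across libraries. It was at 25.2, 27.4, 27.0 and 26.5 CPM under bexarotene, against 28.6, 30.3, 26.1 and 27.1 CPM under vehicle, a log2 fold change of -0.080 ± 0.080. Efnb2, a transmembrane ephrin also found on arterial endothelium, was at 65.5, 49.3, 62.3 and 44.3 CPM under bexarotene, against 59.5, 41.6, 54.8 and 47.0 CPM under vehicle. Replicates 1 and 3 exceeded replicates 2 and 4 in both groups, and the log2 fold change was 0.13 ± 0.15. Adjusted p in the quasi-likelihood test was at least 0.833 for the 6 ephrins.

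The netrin genes had log2 fold changes of both signs. Dcc was at 15.3, 16.9, 15.2 and 12.3 CPM under bexarotene, against 23.8, 12.3, 17.3 and 15.6 CPM under vehicle, a log2 fold change of -0.21 ± 0.19. Unc5d, also a receptor for FLRT proteins, was at 48.7, 48.2, 58.6 and 25.8 CPM under bexarotene, against 79.1, 47.0, 59.6 and 35.5 CPM under vehicle, a log2 fold change of -0.29 ± 0.30. For both receptors vehicle replicate 1 was the highest library, and the groups overlapped. Ntn1 had a mean of 12.9 ± 6.35 CPM with bexarotene and 10.4 ± 2.63 CPM with vehicle (SD, n = 4 each), a log2 fold change of 0.30 ± 0.35.

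Of 67 other guidance genes that were tested, 42 of them ligands and receptors and 25 signalling genes, 43 had a log2 fold change below 0, against 49.8% of all genes, with a median of -0.063. In edgeR's quasi-likelihood test none of the 67 passed, where 0.00622% of all genes did, and 0 had an unadjusted p below 0.05, where 8.77% did. The 6 with the smallest p were Farp2, Sema6c, Plxnb2, Sema3b, Rgmb and Ntn5. Farp2, an exchange factor downstream of plexin-A, was at -0.30 ± 0.14, and the semaphorin Sema6c at -0.31 ± 0.14. Plxnb2, a receptor for class 4 semaphorins, was at 0.15 ± 0.07 and Sema3b at 0.71 ± 0.36. Rgmb, a ligand of the netrin receptor relative neogenin, was at -0.20 ± 0.11, and Ntn5 at -1.19 ± 0.63. The Ntn5 value rested on vehicle replicate 2, at 23.2 CPM, and was -0.19 ± 0.33 without that library.

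Guidance genes have long transcripts, and most genes with long transcripts had a log2 fold change below 0. The median transcript length was 5701 nt for the 36, against 2897 nt for all genes tested. Of 1541 genes with a transcript over 6000 nt and a mean above 2 log2 CPM, 83.7% had a log2 fold change below 0, with a median of -0.13. The 16 guidance genes over 6000 nt had 15 below 0 and a median of -0.19, and the 20 shorter ones had 16 below 0 and a median of -0.12. With each library's trend over length and GC content removed, 26 of the 36 were below 0 and the median was -0.086, against -0.0029 over all genes. Under that offset Slit3 stayed at -0.22, while Robo2 was at -0.12, Sema3a at -0.034 and Epha7 at 0.14. Family medians were then -0.19 for semaphorins, -0.12 for ephrins, -0.11 for Eph receptors and -0.085 for Slits and Robos. They were -0.039 for the netrin genes and -0.014 for plexins and neuropilins. How much of each difference is due to length was not tested.

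Guidance genes were spread widely among libraries of the same group. The SD of log2 CPM within groups had a median of 0.35 over the 36, against 0.22 over all genes and 0.18 over the 10673 genes in the same range of levels. In 18 of the 36 the highest library had at least 2 times the CPM of the lowest, against 32.1% of all genes, and in 5 at least 3 times. The first principal component of the 36 alone held 64.2% of their variance. On it replicates 1 and 3 of both groups again lay on one side and replicates 2 and 4 on the other, although vehicle replicate 3 was nearest the middle. The difference between replicates 1 and 3 and replicates 2 and 4 exceeded the difference between treatments in 30 of the 36, against 56.5% of all genes. Its median size was 0.41 log2 for the 36 and 0.17 for all genes. The split of libraries was itself found in these data, so these values are a description and carry no test.

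**Figure D3:**
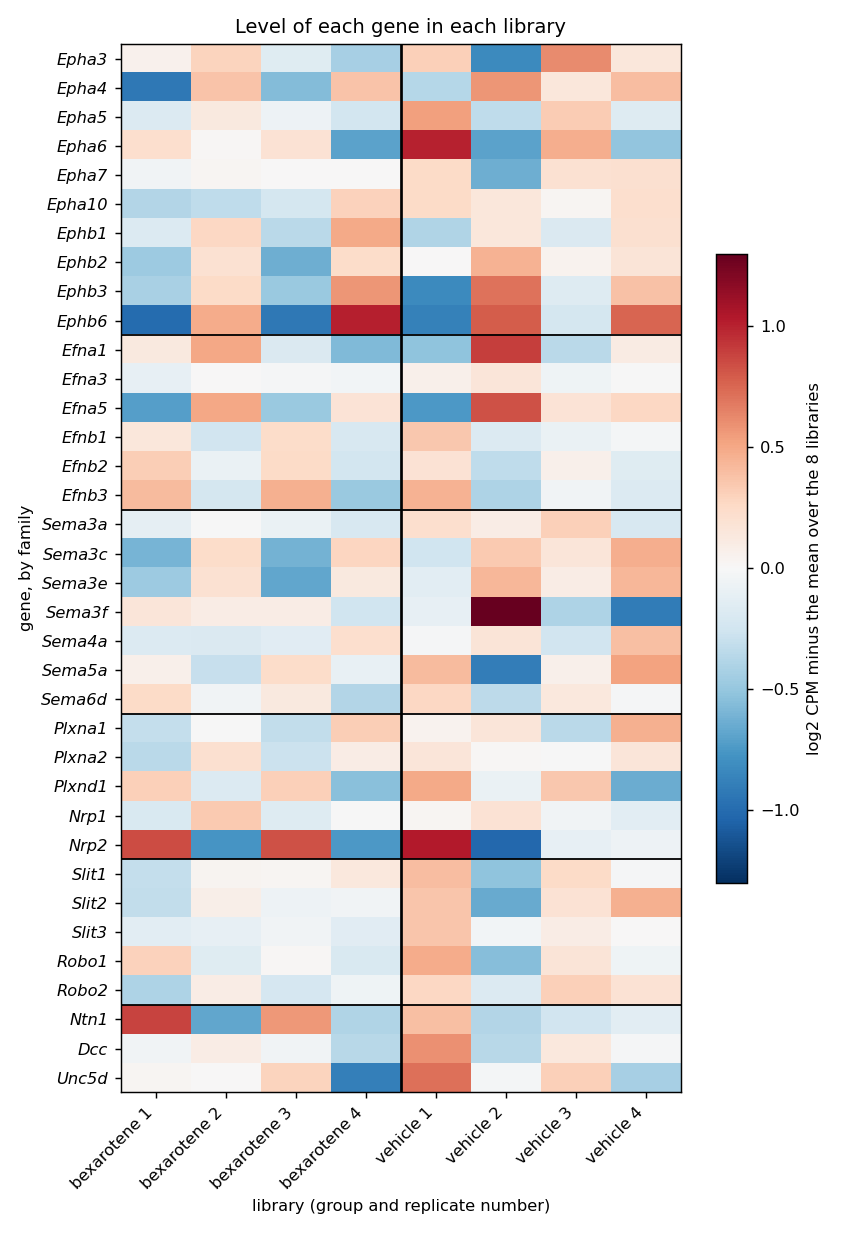
Log2 CPM of each guidance gene minus its mean over the 8 libraries (colour), with genes down the page by family and libraries across, bexarotene replicates 1 to 4 left of the line and vehicle replicates 1 to 4 right of it. Ephb6, Epha4 and Efna5 are low in bexarotene replicates 1 and 3 and vehicle replicate 1, and Nrp2 and Efnb3 are high in the same 3 libraries.

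The direction of that split differed between subfamilies of the Eph receptors and ephrins among the 36. All 4 EphB genes were lower in replicates 1 and 3 than in replicates 2 and 4, and all 3 ephrin-B genes were higher. All 3 ephrin-A genes were lower in replicates 1 and 3, and EphA genes were mixed, with 4 of 6 higher. The sign was the same within bexarotene and within vehicle for all 4 EphB and all 3 ephrin-B genes. It was the same for only 2 of 3 ephrin-A and 4 of 6 EphA genes. Ephb4, an EphB gene outside the 36, had replicates 1 and 3 below replicates 2 and 4 under vehicle but not under bexarotene. It was at 6.51, 3.61, 5.18 and 5.40 CPM under bexarotene, against 3.55, 5.96, 3.42 and 4.24 CPM under vehicle. Ephb6, a receptor without kinase activity, had the largest difference of the 36 between these sets, at -1.52 log2 in replicates 1 and 3 relative to replicates 2 and 4. It was at 33.2, 93.3, 35.0 and 134 CPM under bexarotene, against 36.2, 115, 56.7 and 113 CPM under vehicle, so that replicates 1 and 3 were below replicates 2 and 4 in both groups. The log2 difference was -1.71 within bexarotene and -1.33 within vehicle. Epha4, which binds both classes of ephrin, was at 53.5, 131, 69.2 and 132 CPM under bexarotene, against 79.0, 151, 113 and 135 CPM under vehicle. Efna5, a ligand that patterns cortical and thalamic connections, was at 9.13, 21.2, 10.7 and 17.0 CPM under bexarotene, against 8.89, 26.5, 16.9 and 18.0 CPM under vehicle. Both showed the order of Ephb6, with vehicle replicate 3 closer to replicates 2 and 4.

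The opposite order was seen in Nrp2, Efnb3 and Plxnd1. Nrp2, the neuropilin for Sema3f, was at 53.0, 17.3, 52.4 and 17.5 CPM under bexarotene, against 60.3, 14.5, 27.2 and 28.2 CPM under vehicle. Bexarotene replicates 1 and 3 and vehicle replicate 1 exceeded all other libraries, and vehicle replicates 3 and 4 were nearly equal. Efnb3, a transmembrane ephrin that acts as a midline barrier to corticospinal axons, was at 105, 67.6, 109 and 56.7 CPM under bexarotene, against 108, 59.7, 76.6 and 69.6 CPM under vehicle. Plxnd1, the receptor of Sema3e, was at 143, 101, 142 and 78.9 CPM under bexarotene, against 161, 108, 146 and 73.6 CPM under vehicle, so that all 4 libraries of replicates 1 and 3 exceeded the other 4. Ligand and receptor thus lay on opposite sides, since Sema3e was lower in replicates 1 and 3 by 0.59 log2 and Plxnd1 higher by 0.73. These genes were chosen after their values were seen. The 3 libraries with the highest striatal markers were at the low end for Ephb6, Epha4 and Efna5 and at the high end for Nrp2 and Efnb3. The 8 markers of cortical excitatory neurons summed to 1144 to 1977 CPM under bexarotene and 1477 to 1882 CPM under vehicle, none was at 0, and the part of tissue composition in these values was not tested.

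**Figure D4:**
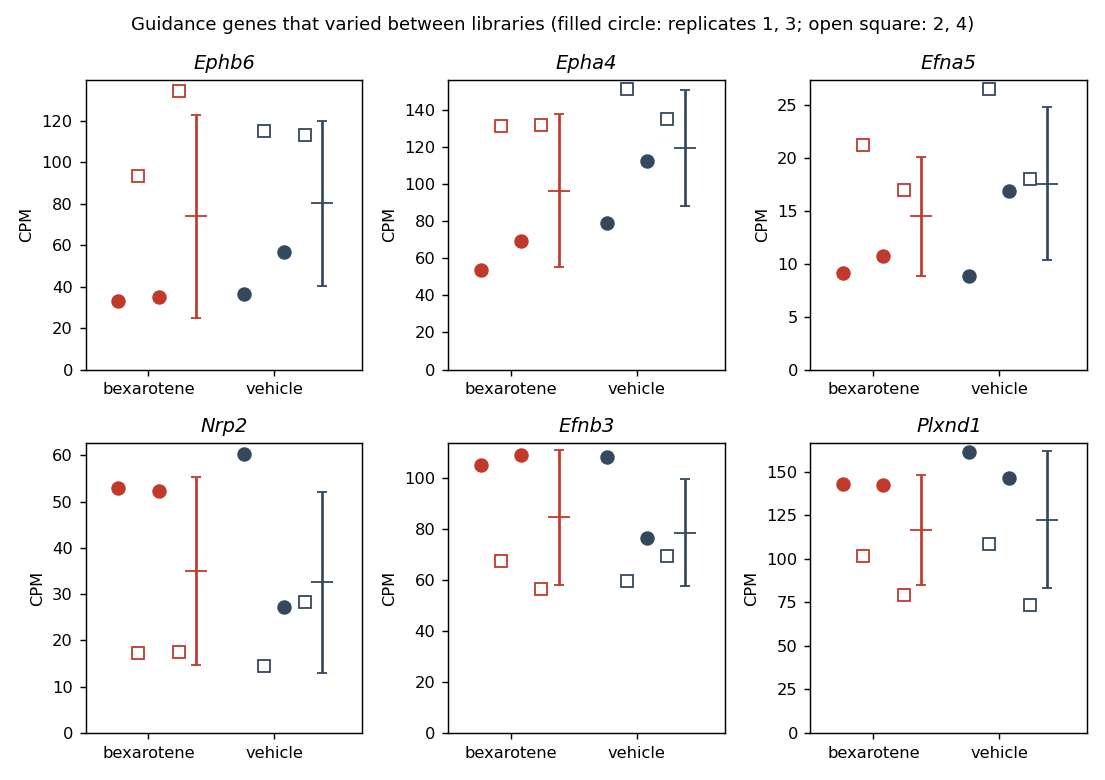
CPM of 6 guidance genes (y axis from 0) in bexarotene libraries on the left and vehicle libraries on the right of each panel. Filled circles are replicates 1 and 3, open squares replicates 2 and 4, and the bar is the mean with its SD. Ephb6, Epha4 and Efna5 are lowest in filled circles, Plxnd1 and Efnb3 are highest in them, and the 2 group means lie within 1 SD of each other in each panel.

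RNA of sex-linked genes also differed between libraries. Xist was at 180, 84.7, 116 and 218 CPM under bexarotene, against 248, 0.861, 307 and 0.620 CPM under vehicle, and the sum of 4 Y-linked genes was 17.1, 88.5, 55.8 and 9.81 CPM, against 0.282, 134, 0.251 and 141 CPM. Vehicle replicates 1 and 3 thus had Xist and vehicle replicates 2 and 4 had Y-linked RNA, while each bexarotene library had both. In vehicle libraries this contrast and the split of guidance genes cannot be told apart. The summed level of 8 microglial markers was 487 to 657 CPM under bexarotene, against 369 to 457 CPM under vehicle. That of 5 choroid plexus markers was 74.6 to 1449 CPM under bexarotene, against 16.8 to 40.9 CPM under vehicle. The part of these differences in the guidance results was not tested.

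Bexarotene and vehicle libraries were also compared within the 2 sets. Within replicates 1 and 3, 27 of the 36 had lower log2 CPM under bexarotene, with a median of -0.28, and within replicates 2 and 4 it was 22 of the 36, with a median of -0.055. Over all 16069 genes it was 7524 and 7861, with medians of 0.026 and 0.0055. Over the 1541 genes with a transcript over 6000 nt it was 1246 and 976, with medians of -0.22 and -0.047. Eph receptors had medians of -0.47 and 0.085 within the 2 sets, and Slits and Robos -0.47 and 0.11. Semaphorins kept the same sign, with -0.084 and -0.15, and all 7 were below 0 within replicates 2 and 4. Ephrins were at 0.11 and -0.11. A test within replicates 1 and 3 alone, 2 libraries against 2, called 3 of the 36 at an adjusted p below 0.05, where it called 4.51% of all genes. These were Epha5 (-0.55 ± 0.10, adjusted p = 0.0294 in edgeR), Robo2 (-0.59 ± 0.09, 0.0294) and Plxna2 (-0.39 ± 0.09, 0.0482), and Epha5 was at 0.21, Robo2 at 0.0090 and Plxna2 at 0.066 within replicates 2 and 4. Vehicle replicates 1 and 3 differed from bexarotene replicates 1 and 3 in more than treatment, with striatal sums of 904 to 1235 CPM under bexarotene and 317 to 646 CPM under vehicle, and Y-linked sums of 17.1 and 55.8 CPM under bexarotene and 0.282 and 0.251 CPM under vehicle. Treatment and these differences cannot be told apart in that set. Epha5, a synaptic and growth cone receptor chosen after its values were seen, had 65.9 and 71.1 CPM in bexarotene replicates 1 and 3, against 108 and 94.1 CPM in vehicle replicates 1 and 3. In replicates 2 and 4 it was at 81.4 and 63.1 CPM under bexarotene, against 59.1 and 66.2 CPM under vehicle.

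**Figure D5:**
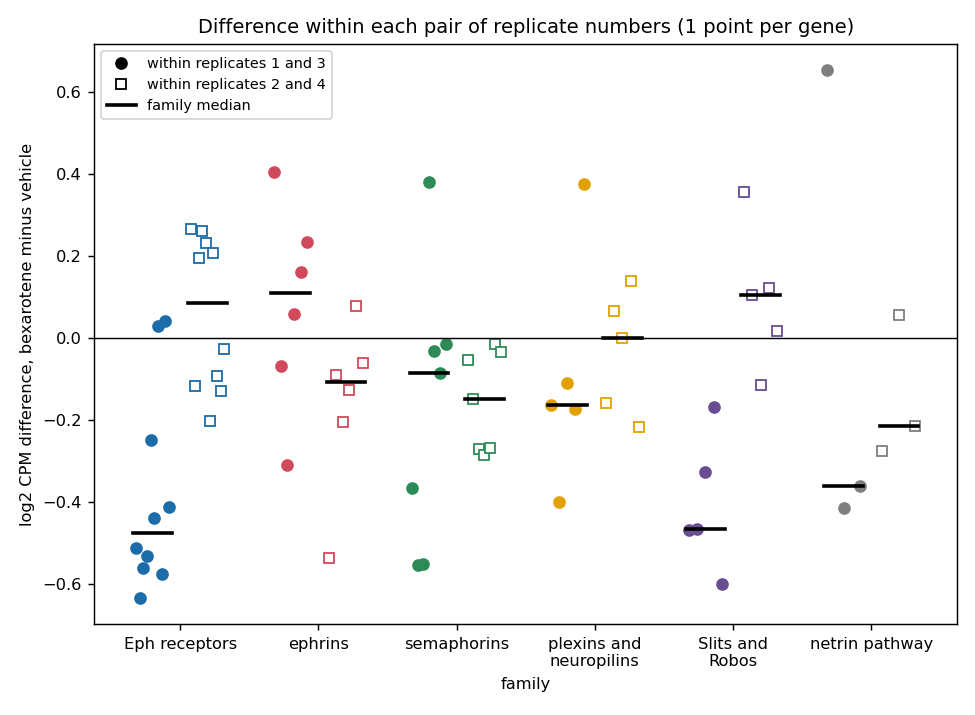
Difference in log2 CPM between bexarotene and vehicle (y axis) for each guidance gene, by family (x axis), within replicates 1 and 3 (filled circles) and within replicates 2 and 4 (open squares); black lines are family medians. In the filled circles 8 of 10 Eph receptors and all 5 Slit and Robo genes lie below 0, and in the open squares 5 of 10 and 1 of 5 do.

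The difference between the 2 sets was tested with an interaction term over all genes in edgeR. None of the 36 passed at an adjusted p below 0.05, and neither did any other gene, while 7 of the 36 had an unadjusted p below 0.05, against 13.3% of all genes. The smallest was that of Epha5, with an interaction of -0.77 ± 0.19 log2 and an adjusted p of 0.167. Plxna2 had -0.47 ± 0.13, Robo2 -0.61 ± 0.18 and Slit1 -0.80 ± 0.24, with adjusted p of 0.198 to 0.204. Epha6, Ephb2 and Ntn1 were the other 3, with -0.86, -0.48 and 0.91. Slit1 was also chosen after its values were seen. Bexarotene replicates 1 and 3 had 48.0 and 60.2 CPM of it, against 78.0 and 70.7 CPM in vehicle replicates 1 and 3. In replicates 2 and 4 it was at 60.7 and 65.4 CPM under bexarotene, against 41.2 and 58.6 CPM under vehicle.

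Per kilobase of transcript, the most abundant guidance RNAs were Efnb3, at 25.6 CPM per kb over the 8 libraries, Ephb6 (20.5), Plxnd1 (17.3), Epha4 (17.1) and Sema4a (13.2), with Slit1 next. Given the spread between libraries described for Efnb3, Ephb6, Plxnd1 and Epha4, their order is not firm. The lowest were Epha3 (0.678), Ephb2 (1.06), Slit2 (1.32) and Dcc (1.56). Among Slits the order was Slit1, Slit3 (5.35) and Slit2, and Robo2 (9.08) exceeded Robo1 (4.56). Robo2 was above Robo1, and Slit1 above Slit2, in each of the 8 libraries on this scale.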

How the data were processed

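PolyA RNA of cortex was sequenced with a stranded kit, per the labels' protocols, and the deposited table holds raw counts for 28644 RefSeq transcript rows; the submitters' processing notes name the mm9 build and edgeR, and the aligner and the strand setting are not named there. For each gene the row with the highest mean count was used, since 3705 symbols, 9 of the 36 among them, have several rows that can share reads. The 36 genes, the other gene lists and the rules were chosen with earlier results of these data known. The genes described by library are the 2 with the smallest p in each family, and others are said to be chosen after their values were seen. Counts were fitted over all 8 libraries in edgeR 4.0.16 (R 4.3.3, filterByExpr, TMM, quasi-likelihood), with p-values adjusted over 21285 rows; the threshold was 0.05. DESeq2 1.42.0 and limma 3.58.1 were alternatives. Single values used an exact two-sided permutation test over 70 regroupings. Log2 CPM had a prior count of 2. Replicate numbers were treated as pairs, since same-numbered libraries deviated together (correlations of 0.144 to 0.427), although bexarotene replicates 3 and 4 correlated best with vehicle replicates 1 and 2 and the labels do not say what a number marks; the block was an alternative to the fit without it. Transcript lengths came from GENCODE M21, matched for 27791 rows. The scripts were checked on simulated counts. Depth was 42413825 to 76542067 counts per library.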

Additional observations from a re-analysis of the deposited data

Results flagged for a closer look

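Of 72 sets of 4 libraries, 3 had a library far from the other 3 by Dixon's criterion, where chance gives about 1 in 20. Epha7 was at 22.9 CPM in vehicle replicate 2, and the other vehicle libraries were at 41.0 to 42.4 CPM. Sema3f was at 5.74 CPM in bexarotene replicate 4, and the other bexarotene libraries were at 7.34 to 7.64 CPM. Sema4a was at 48.7 CPM in bexarotene replicate 4, and the other bexarotene libraries were at 36.6 to 37.7 CPM.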

How the results depend on the processing

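Of 504 results for single guidance genes under alternatives other than leaving out 1 library, 453 kept direction and side of the threshold, 48 changed sign and 3 passed the threshold. Values are log2 fold changes, and the cause of the changes was not tested. With upper quartile factors Efnb1 was 0.00498, Sema6d 0.013 and Nrp1 0.0251. Sema3f was 0.041 with limma voom, and Nrp2 -0.00969 with library cluster as a covariate, where 3 genes of all passed. DESeq2 called 97 genes. With the length and GC offset Epha5 was 0.00348, Epha7 0.14, Sema5a 0.048, Sema6d 0.081 and Robo1 0.054. With the replicate block 0 of the 36 passed and 1 gene of all, the median of the 36 was -0.14, Sema3f was 0.051, and no call at the adjusted threshold changed. With block and offset together the median of the 36 was -0.053 and of semaphorins -0.023. In that fit Epha3 was 0.023, Epha5 0.0348, Epha7 0.17, Sema3f 0.000778, Sema5a 0.086, Sema6d 0.067, Plxnd1 0.00836 and Robo1 0.0700. Within replicates 1 and 3, 3 of the 36 and 725 genes of all passed, and the median was -0.28 for the 36, -0.48 for Eph receptors and 0.11 for ephrins. There Ephb3 was 0.0094, Efna1 0.42, Efnb1 0.056 and Sema3f 0.39. Within replicates 2 and 4, edgeR called 0 genes and the median of Eph receptors was 0.085. There Epha3 was 0.24, Epha5 0.21, Epha6 0.30, Epha7 0.17, Efnb3 -0.058, Plxna2 0.066, Nrp1 0.14, Nrp2 -0.30, Slit1 0.34, Slit2 0.0025, Robo1 0.10, Robo2 0.0090, Ntn1 -0.27 and Dcc 0.067. Leaving out the 3 libraries highest in striatal markers, chosen after seeing the data, left 0 genes past the threshold in edgeR and a median of 0.036 for plexins and neuropilins. There Epha7 was 0.048, Ephb3 0.0766, Ephb6 0.26, Efnb2 -0.026, Efnb3 -0.14, Plxna1 0.036, Plxna2 0.10, Nrp1 0.17, Nrp2 -0.42, Slit1 0.15 and Ntn1 -0.27. Leaving out 1 library at a time, 1 to 2 genes of all passed, 2 of them without bexarotene replicate 2. The ranges of genes that changed sign were -0.40 to 0.015 for Epha3, -0.46 to 0.12 for Epha6, -0.22 to 0.024 for Epha7, -0.016 to 0.26 for Ephb1, -0.31 to 0.17 for Ephb3, -0.57 to 0.13 for Ephb6, -0.33 to 0.26 for Efna1, -0.12 to 0.094 for Efnb1 and -0.037 to 0.30 for Efnb3. They were -0.45 to 0.48 for Sema3f, -0.35 to 0.041 for Sema5a, -0.12 to 0.092 for Sema6d, -0.25 to 0.088 for Plxnd1, -0.13 to 0.064 for Nrp1, -0.16 to 0.59 for Nrp2, -0.23 to 0.044 for Slit1, -0.21 to 0.12 for Robo1 and -0.000453 to 0.52 for Ntn1. The sign of 11 of the 36, Slit3 among them, was the same in all 22 alternatives. Which of depth and library number limits precision was not tested.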

Other observations

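Vehicle replicate 2 held high values of 2 guidance genes, chosen after their values were seen. Sema3f was at 7.64, 7.34, 7.35 and 5.74 CPM under bexarotene, against 6.37, 17.1, 5.18 and 3.63 CPM under vehicle. Ntn5 was at 2.62, 6.78, 2.98 and 3.98 CPM under bexarotene, against 3.97, 23.2, 5.75 and 4.34 CPM under vehicle.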
